A study of Homo sapiens with 19 samples.

Results

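The genes described here are the mitosis genes of THP-1 cells, a human acute monocytic leukemia line grown as a culture model of monocytes and macrophages. They were chosen by name, as the genes whose array name equals a member of a list of 46 mitosis genes, and 45 of the 46 were found among the 31033 gene names of the array. DLGAP5, a spindle protein, was the member without a match under that name. The array carries it as DLG7, an older symbol in RefSeq, and DLG7 is given apart and is not in any count of the 45.

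All cells in the study had been differentiated with PMA, a phorbol ester that turns THP-1 cells into adherent macrophage-like cells, and had then been rested in fresh medium before vit C was added to the treated flasks. UT (untreated) cells received PMA and no vit C and gave 2 arrays for the 8 h time point, 3 for 24 h, 2 for 48 h and 3 for 96 h. Cells given 0.1 mM vit C gave 3 arrays for 8 h and 2 for each later time (24, 48 and 96 h). Flasks were set up in triplicate, and only RNA of sufficient integrity was hybridized. There was no group without PMA and none at the time of vit C addition, so each change over time is counted from 8 h. Whole cultures were measured, so more cells in mitosis and more RNA per cell cannot be told apart.

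As background, a cell enters mitosis when CDC2 kinase, bound to its A- and B-type cyclins, is activated by the phosphatase CDC25C. Kinases such as PLK1 and the Aurora kinases then build the spindle, kinesin motors move chromosomes along it, and the checkpoint proteins BUB1B, MAD2L1 and TTK hold back the anaphase-promoting complex until every kinetochore is attached. CDC20 and UBE2C then direct the destruction of securin (PTTG1) and cyclin B, which frees separase (ESPL1) to cut cohesin. The RNA of most of these genes peaks in G2 and M phase, and resting or terminally differentiated cells hold little of it. PMA is known to slow the division of THP-1 cells.

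Promoters of this gene class are known for a cell cycle homology region (CHR), written here as TTTGAA or TTTAAA, and for CCAAT boxes, written as CCAAT. Both motifs were looked up on both strands in RefSeq promoters of GRCh38.p14 that run from 250 bases before to 50 bases after a start site. Of the 45 genes, 40 had a promoter in the table, with 49 promoters in all. A CHR was present in 37 of the 49 promoters (75.5%), against 24.0% of all 35116 promoters. A CCAAT box was present in 35 (71.4%), against 34.6% of all. Both motifs were found in 27 (55.1%), against 9.27% of all. These matches describe letters in a window and not bound sites. The promoters of CCNB1, CCNB2, CDC2 (CDK1 in RefSeq) and CDC20 are shown because these genes hold both motifs and recur in the results. Each is printed 5′ to 3′ on its gene's strand up to the base before the start site, with CHR and CCAAT matches on either strand in capitals. No CHR match overlaps a CCAAT match in these 4 promoters.
CCNB1, chr5:69166900-69167149, plus strand: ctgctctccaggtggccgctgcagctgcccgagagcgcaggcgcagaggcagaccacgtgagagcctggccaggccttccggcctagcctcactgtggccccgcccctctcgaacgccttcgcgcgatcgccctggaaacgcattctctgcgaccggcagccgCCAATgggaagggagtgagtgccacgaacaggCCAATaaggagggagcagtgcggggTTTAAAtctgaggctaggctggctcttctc
CCNB2, chr15:59104896-59105145, plus strand: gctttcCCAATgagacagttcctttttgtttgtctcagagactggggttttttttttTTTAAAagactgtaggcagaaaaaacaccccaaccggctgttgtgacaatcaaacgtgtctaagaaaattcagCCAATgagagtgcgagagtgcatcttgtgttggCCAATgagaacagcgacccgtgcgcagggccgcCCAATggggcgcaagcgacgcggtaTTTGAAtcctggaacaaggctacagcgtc
CDC2, chr10:60778081-60778330, plus strand: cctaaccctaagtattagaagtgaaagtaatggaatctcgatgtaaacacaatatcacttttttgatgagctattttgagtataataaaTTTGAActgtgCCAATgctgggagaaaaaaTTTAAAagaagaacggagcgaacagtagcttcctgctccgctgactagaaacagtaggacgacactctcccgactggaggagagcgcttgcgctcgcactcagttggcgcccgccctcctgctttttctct
CDC20, chr1:43358731-43358980, plus strand: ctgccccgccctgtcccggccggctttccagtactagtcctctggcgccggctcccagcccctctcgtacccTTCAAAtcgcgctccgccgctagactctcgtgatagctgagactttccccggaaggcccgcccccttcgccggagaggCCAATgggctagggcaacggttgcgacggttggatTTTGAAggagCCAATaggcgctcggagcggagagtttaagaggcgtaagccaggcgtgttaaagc
The CHR nearest the start began 30 bases before it in CCNB1 and 29 bases before it in CCNB2, with a CCAAT box 55 and 54 bases before it. In CDC20 the nearest CHR began 65 bases and the nearest CCAAT box 55 bases before the start. In the CDC2 promoter shown, which belongs to the more upstream of the gene's start sites, they began 131 and 150 bases before it.

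Values below are normalized log2 signals, the log2 of the spot's processed signal minus the array's own 75th percentile of it, so that 0 is the level of that percentile. Each value belongs to the gene's brightest probe, and levels of different genes are not compared. A gene was called when its log2 fold change reached 1 in either direction and its limma q, over all 31033 genes, was 0.05 or less. On the 19 arrays the signal's 75th percentile ran from 290 to 903, and the share of probes well above background from 57.5% to 72.8%. Of the 45 mitosis genes, 43 were well above background on every array, KIF14 was so on 12 and CDC25C on 18. Of 12 monocyte and macrophage markers, 11 were well above background on all arrays, LYZ on 18. Of 13 markers of other cell types 6 were on all arrays and 4 (CD3D, the EPCAM gene TACSTD1, COL1A2 and HBB) on none. The arrays came from 4 slides. All UT arrays at 8, 24 and 48 h and 1 of the 3 at 96 h were on slide 1, all vit C arrays at 8 and 24 h on slide 2, the vit C arrays at 48 h on slides 2 and 3, and both vit C arrays at 96 h on slide 4, which was scanned on another day.

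The mitosis genes changed mostly with time in culture. The median over the 45 genes on an array was 0.20 and 0.12 in UT cells at 8 h, and 0.20, 0.14 and 0.09 at 24 h. At 48 h it was 1.70 and 1.66, and at 96 h 2.93, 2.63 and 3.34. The UT arrays at 8 and 24 h overlapped, those at 48 h lay above both, and those at 96 h lay above all others of UT cells. In vit C-treated cells the median was −0.04, −0.04 and 0.04 at 8 h, and 0.43 and 0.75 at 24 h. It was 2.46 and 2.18 at 48 h, and 2.89 and 2.90 at 96 h. At 24 h and at 48 h both vit C arrays lay above every UT array of the same time, and at 96 h they lay inside the range of the UT arrays.

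**Figure D1:**
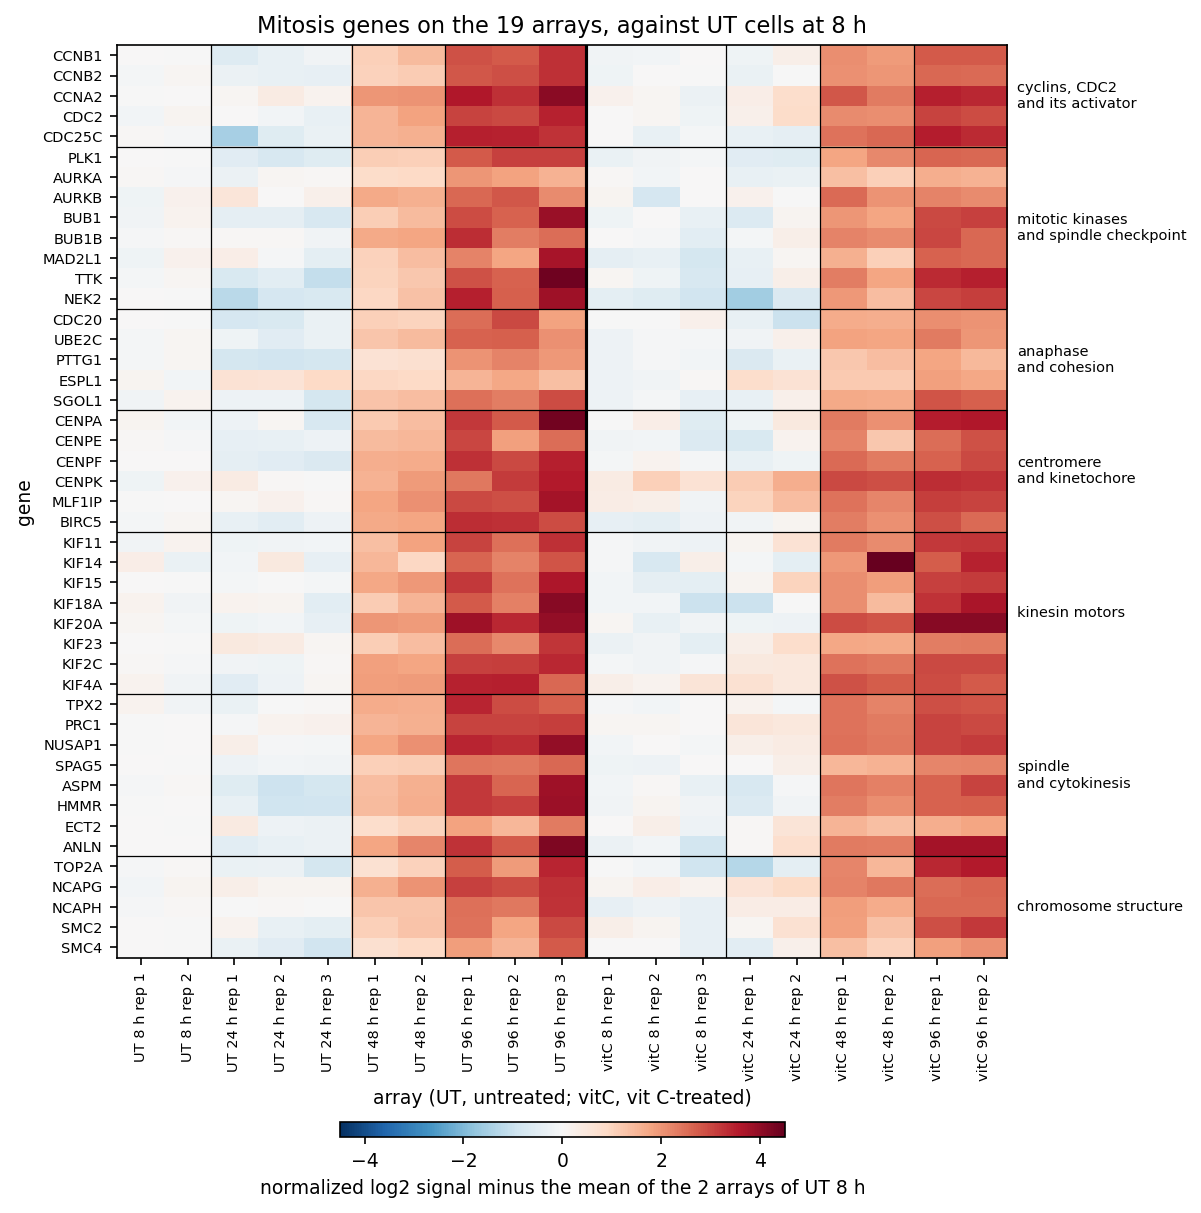
Each cell shows the normalized log2 signal of 1 mitosis gene (vertical axis, grouped by role) on 1 of the 19 arrays (horizontal axis, by group), minus that gene's mean over the 2 arrays of UT cells at 8 h. The colour deepens at 48 h and again at 96 h in most genes of both arms, ESPL1 and AURKA stay paler, and UT 96 h replicate 3 is the darkest array for TTK, CENPA and KIF18A.

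**Figure D2:**
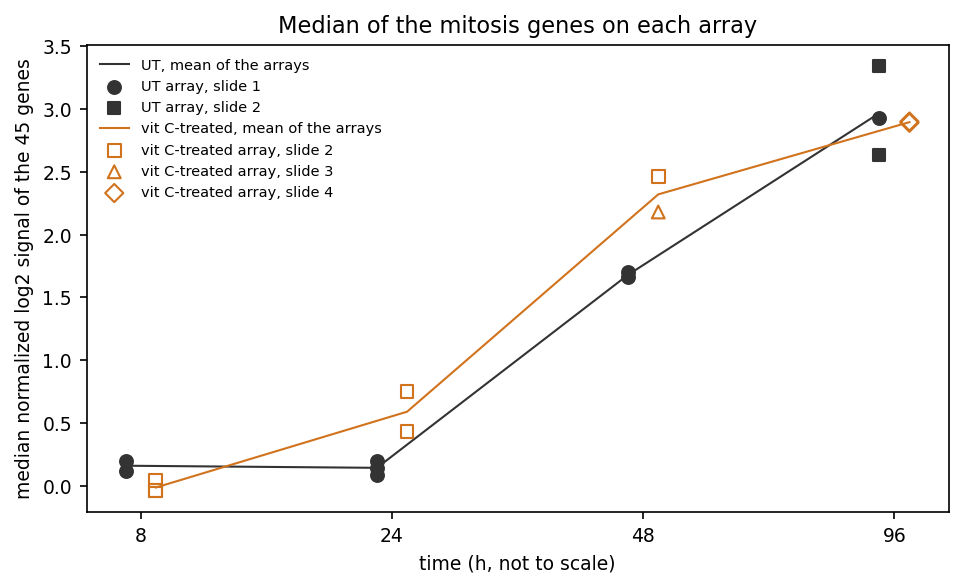
Each point is the median normalized log2 signal of the 45 genes on 1 array (vertical axis) against time (horizontal axis, not to scale), with filled symbols for UT and open symbols for vit C-treated cells, the shape giving the slide and the line joining group means. UT cells stayed near 0.14 to 0.16 until 24 h and reached 2.97 at 96 h, while vit C-treated cells had a mean of 0.59 at 24 h and 2.32 at 48 h and ended at 2.90.

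Between 8 and 24 h in UT cells no mitosis gene was called (limma), against 1.06% of all genes called higher and 1.07% called lower. At an unadjusted p under 0.05, 8 of the 45 differed, 7 of them lower at 24 h, against 15.6% of all genes. The methods' t-test called none of the 45 and 0% of all genes, with 11 of the 45 at an unadjusted p under 0.05, against 14.1% of all genes. In all, 35 of the 45 were lower at 24 h, with a median log2 fold change of −0.20, against 0.05 over all genes. PTTG1, the securin that holds separase inactive, read 4.20 and 4.41 at 8 h and 3.50, 3.46 and 3.52 at 24 h. The groups did not overlap, and the difference of −0.81 (SE 0.17) had a q of 0.0198 but was under the fold limit. ESPL1, the separase itself, went the other way, from 0.24 and 0.01 to 0.79, 0.73 and 1.02. Its difference of 0.72 (SE 0.17) had a q of 0.0379 and was also under the fold limit. In vit C-treated cells ESPL1 read −0.11, −0.04 and 0.19 at 8 h and 0.92 and 0.77 at 24 h, a difference of 0.83 (SE 0.17, q = 0.00901) that exceeded the one in UT cells by 0.11 (SE 0.24, q = 0.932).

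By 48 h UT cells had 31 of the 45 genes called higher than at 8 h, against 4.44% of all genes. The methods' t-test, which takes the spread from the arrays compared alone, called 0 of the 45 and 0.0226% of all genes. All 45 were higher, with a median log2 fold change of 1.33, or 2.52-fold, against 0.04 over all genes. By 96 h all 45 were called higher than at 8 h, against 6.97% of all genes, and the methods' t-test called 6, against 0.68% of all genes. The median was 3.01, or 8.08-fold, against 0.02 over all genes, and the range was 1.55 to 3.72. Against 24 h, 44 of the 45 were called higher at 96 h, against 8.54% of all genes, with a median of 3.09, against −0.15 over all genes, and the methods' t-test called 41, against 5.5% of all genes. The gene not called was ESPL1, with a difference of 0.83 (SE 0.15, q = 0.00111) that was under the fold limit. These comparisons share control arrays. Those between 8 and 48 h lay within slide 1. Of the UT arrays at 96 h, 1 was on slide 1, and its median over the 45 genes was 2.93. The UT medians on that slide were 0.20 and 0.12 at 8 h, and 0.20, 0.14 and 0.09 at 24 h.

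The cyclins, CDC2 and its activator were the role in which every gene, 5 of 5, was called at both 48 and 96 h in UT cells, with median log2 fold changes of 1.56 and 3.16. CCNB1, the B-type cyclin that drives entry into mitosis, read 1.57 and 1.54 at 8 h and 0.98, 1.22 and 1.38 at 24 h. It read 2.61 and 2.98 at 48 h and 4.43, 4.32 and 4.84 at 96 h. The 24 h arrays lay below those at 8 h, and the later times did not overlap with any earlier time. CCNB1 thus differed from 8 h by 1.24 (SE 0.22, q = 0.00243) at 48 h and by 2.98 (SE 0.20, q = 1.98e-07) at 96 h. CCNA2, the A-type cyclin of S and G2 phase, read −1.96 and −1.93 at 8 h, −1.86, −1.57 and −1.79 at 24 h, 0.04 and 0.07 at 48 h and 1.67, 1.33 and 2.11 at 96 h. Its rise of 2.00 (SE 0.27, q = 0.000221) at 48 h was the largest of the 45 genes, and at 96 h it was 3.64 (SE 0.24, q = 1.56e-07). CDC2, the kinase these cyclins activate, went from 1.35 and 1.59 at 8 h to 2.99 and 3.29 at 48 h and 4.50, 4.44 and 4.94 at 96 h, a rise of 3.16 (SE 0.22, q = 2.15e-07). CDC25C, the phosphatase that activates it, read −2.88 and −3.00 at 8 h, and −4.45, −3.50 and −3.24 at 24 h. It then read −1.41 and −1.35 at 48 h and 0.57, 0.54 and 0.30 at 96 h. Its 96 h arrays differed from those at 24 h, of which 1 of 3 was not well above background, by 4.20 (SE 0.24, q = 3.21e-08).

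CCNB2 was the member with opposing probes, both well above background on all arrays, in the changes from 8 to 48 and 96 h. Its brightest probe read 2.45 and 2.63 at 8 h, 3.58 and 3.69 at 48 h and 5.32, 5.44 and 5.83 at 96 h in UT cells, a rise of 2.99 (SE 0.18, q = 6.06e-08). A dimmer probe of the same gene moved by −1.08 at 96 h and −0.77 at 48 h against 8 h. The methods' rule leaves out a gene with opposing probes, which kept 43 of the 45 in this comparison, 40 for vit C-treated against UT cells at 8 and 24 h, 45 at 48 h and 38 at 96 h. Of the other 10 members with several probes, the dimmer ESPL1 probe (−0.22 at 96 h) also opposed the brighter one, but it was well above background on no array. The remaining members' probes moved the same way at 96 h, from 0.88 for an ECT2 probe that was above background on 2 arrays to 4.02 for a KIF11 probe. In the smaller differences between vit C-treated and UT cells further probes opposed each other, such as those of NUSAP1 at 24 h (0.28 and −0.32) and of ASPM at 96 h (−0.36 and 0.78).

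Of the 8 mitotic kinases and spindle checkpoint genes, 4 were called in UT cells at 48 h (PLK1, AURKB, BUB1 and BUB1B) and all 8 at 96 h, with median log2 fold changes of 1.16 and 2.84. PLK1, which drives centrosome maturation and mitotic entry, read 2.14 and 2.09 at 8 h and 1.61, 1.38 and 1.56 at 24 h. It read 3.22 and 3.17 at 48 h and 4.89, 5.20 and 5.20 at 96 h. The 24 h arrays were all below those at 8 h, by −0.60 (SE 0.17, q = 0.0786), and PLK1 rose by 2.98 (SE 0.17, q = 4.85e-08) from 8 to 96 h. AURKA, the Aurora kinase of the spindle poles, moved least in this role, from 1.68 and 1.54 at 8 h to 2.43 and 2.49 at 48 h and 3.61, 3.43 and 3.17 at 96 h. Its 96 h difference was 1.79 (SE 0.18, q = 6.54e-06), and that at 48 h, 0.85 (SE 0.20, q = 0.0125), was under the fold limit. AURKB, the kinase of the chromosomal passenger complex, rose by 1.65 (SE 0.32, q = 0.00372) at 48 h and 2.50 (SE 0.29, q = 2.5e-05) at 96 h. The checkpoint kinase TTK read −2.09 and −1.89 at 8 h, −2.68, −2.46 and −3.06 at 24 h, −1.00 and −0.78 at 48 h and 0.88, 0.67 and 2.40 at 96 h. UT 96 h replicate 3 was more than 1 log2 unit above the other two arrays of its group for TTK, and also for the checkpoint protein MAD2L1, which read 3.32, 2.86 and 4.79. TTK at 96 h differed from 8 h by 3.31 (SE 0.42, q = 6.13e-05). NEK2, a centrosome kinase, rose between 24 and 96 h by 4.23 (SE 0.30, q = 1.66e-07), from −3.75, −3.30 and −3.23 to 0.95, 0.17 and 1.29.

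Anaphase and cohesion genes had the smallest median change of any role at 48 and 96 h, 1.04 and 2.43, with 2 of 5 called at 48 h (UBE2C and SGOL1) and 5 of 5 at 96 h. CDC20, the activator of the anaphase-promoting complex, read 1.85 and 1.80 at 8 h and 1.08, 1.15 and 1.52 at 24 h. At 48 h it read 2.90 and 2.82, and at 96 h 4.35, 4.80 and 3.62. Its difference of 1.04 (SE 0.31) at 48 h had a q of 0.0539, and at 96 h it rose by 2.43 (SE 0.28, q = 2.81e-05). In contrast to TTK, UT 96 h replicate 3 was the lowest array of its group for CDC20, and also for UBE2C, the ubiquitin-conjugating enzyme of the same complex (4.21, 4.26 and 3.60). PTTG1 read 4.94 and 5.02 at 48 h and 6.34, 6.55 and 6.26 at 96 h, a rise of 2.08 (SE 0.17, q = 1.03e-06) over 8 h. ESPL1 read 1.04 and 1.03 at 48 h and 1.66, 1.88 and 1.48 at 96 h, and its rise over 8 h of 1.55 (SE 0.17, q = 1.76e-05) was the smallest of the 45. SGOL1, the shugoshin that protects cohesin at centromeres, rose by 2.57 (SE 0.24, q = 3.41e-06).

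Centromere and kinetochore genes were called in 5 of 6 cases at 48 h and 6 of 6 at 96 h, with medians of 1.70 and 3.19. BIRC5 (survivin), a chromosomal passenger protein, read 3.10 and 3.30 at 8 h, 2.87, 2.74 and 2.98 at 24 h, 4.91 and 4.96 at 48 h and 6.51, 6.48 and 6.12 at 96 h. The replicates lay close together and the rises were 1.74 (SE 0.20, q = 7.06e-05) at 48 h and 3.17 (SE 0.18, q = 5.81e-08) at 96 h. MLF1IP (CENPU in RefSeq), a subunit of the inner kinetochore, read 0.10 and 0.12 at 8 h, 0.20, 0.32 and 0.17 at 24 h, 1.90 and 2.16 at 48 h and 3.08, 3.00 and 3.86 at 96 h. It rose by 1.92 (SE 0.27, q = 0.000357) and 3.20 (SE 0.25, q = 5.88e-07). CENPA, the histone H3 variant that marks centromeres, was the gene of this role not called at 48 h (1.29, SE 0.44, q = 0.0893). It read −2.05 and −2.30 at 8 h and 1.02, 0.57 and 2.17 at 96 h, a rise of 3.43 (SE 0.40, q = 2.79e-05). CENPF, a large kinetochore protein, rose by 3.26 (SE 0.19, q = 5.01e-08), CENPK by 3.04 (SE 0.31, q = 8e-06) and the kinetochore motor CENPE by 2.45 (SE 0.35, q = 0.000167).

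Of the 8 kinesin motors, 6 were called at 48 h and 8 at 96 h, with medians of 1.69 and 3.07. KIF20A, a motor of cytokinesis, had the largest rise of the 45 genes from 8 to 96 h. It read −2.33 and −2.51 at 8 h, −2.63, −2.54 and −2.79 at 24 h, −0.43 and −0.52 at 48 h and 1.39, 0.99 and 1.53 at 96 h. It rose by 1.95 (SE 0.20, q = 2.63e-05) at 48 h and 3.72 (SE 0.18, q = 1.83e-08) at 96 h. KIF2C, a microtubule depolymerase at centromeres, read 1.92 and 1.83 at 8 h, 3.71 and 3.64 at 48 h and 4.96, 4.97 and 5.26 at 96 h, a rise of 3.19 (SE 0.15, q = 1.39e-08). KIF11, the motor that pushes the spindle poles apart, rose by 2.93 (SE 0.24, q = 1.08e-06), and the chromosome-bound KIF4A by 3.19 (SE 0.27, q = 1.3e-06). KIF14 and KIF18A were not called at 48 h. Only 1 of the 2 UT arrays at 8 h and 1 of the 3 at 24 h had KIF14 well above background. This motor of cytokinesis read −4.66 and −5.29 at 8 h and −2.34, −2.76 and −2.13 at 96 h (difference 2.57, SE 0.57, q = 0.0055).

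Spindle and cytokinesis genes were called in 7 of 8 cases at 48 h, ECT2 being the exception, and in 8 of 8 at 96 h, with medians of 1.55 and 3.14. NUSAP1, a microtubule-binding spindle protein, read 1.31 and 1.38 at 8 h, 1.60, 1.30 and 1.25 at 24 h, 3.13 and 3.41 at 48 h and 4.79, 4.68 and 5.29 at 96 h. Its rises were 1.93 (SE 0.21, q = 4.41e-05) and 3.58 (SE 0.19, q = 3.45e-08). PRC1, which bundles microtubules of the spindle midzone, read 1.37 and 1.38 at 8 h, 2.91 and 2.98 at 48 h and 4.40, 4.43 and 4.49 at 96 h. The arrays of each of these times lay close together, those at 24 h (1.31, 1.54 and 1.58) less so, and PRC1 rose by 3.06 (SE 0.14, q = 1.38e-08) at 96 h. HMMR, a spindle and hyaluronan-binding protein, read 2.12 and 2.13 at 8 h, 1.80, 1.22 and 1.27 at 24 h and 5.29, 5.19 and 5.99 at 96 h, and the dip at 24 h (−0.70, SE 0.25, q = 0.189) did not pass. ANLN, the actin-binding anillin of the cleavage furrow, rose by 3.40 (SE 0.34, q = 7.07e-06), TPX2, an activator of AURKA, by 3.01 (SE 0.21, q = 2.16e-07), and ECT2, the exchange factor that starts furrow formation, by 1.88 (SE 0.27, q = 0.000191). DLG7, the older name of DLGAP5, which is left out of the counts, rose by 1.20 (SE 0.32, q = 0.0287) at 48 h and 3.23 (SE 0.29, q = 2.54e-06) at 96 h.

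Chromosome structure genes were called in 2 of 5 cases at 48 h (NCAPG and NCAPH) and 5 of 5 at 96 h, with medians of 1.18 and 2.69. NCAPG, a condensin subunit, read 2.28 and 2.52 at 8 h, 4.00 and 4.43 at 48 h and 5.48, 5.35 and 5.68 at 96 h. It rose by 1.82 (SE 0.20, q = 3.65e-05) and 3.10 (SE 0.18, q = 5.53e-08). TOP2A, the topoisomerase that untangles sister chromatids, moved less by 48 h and spread more, with −0.57 and −0.45 at 8 h, 0.19 and 0.54 at 48 h and 2.20, 1.40 and 2.93 at 96 h. Its difference was 0.87 (SE 0.45, q = 0.284) at 48 h and its rise 2.69 (SE 0.41, q = 0.000305) at 96 h. The condensin ATPases SMC2 and SMC4 rose by 2.39 (SE 0.33, q = 0.000116) and 2.05 (SE 0.32, q = 0.000335) at 96 h.

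**Figure D3:**
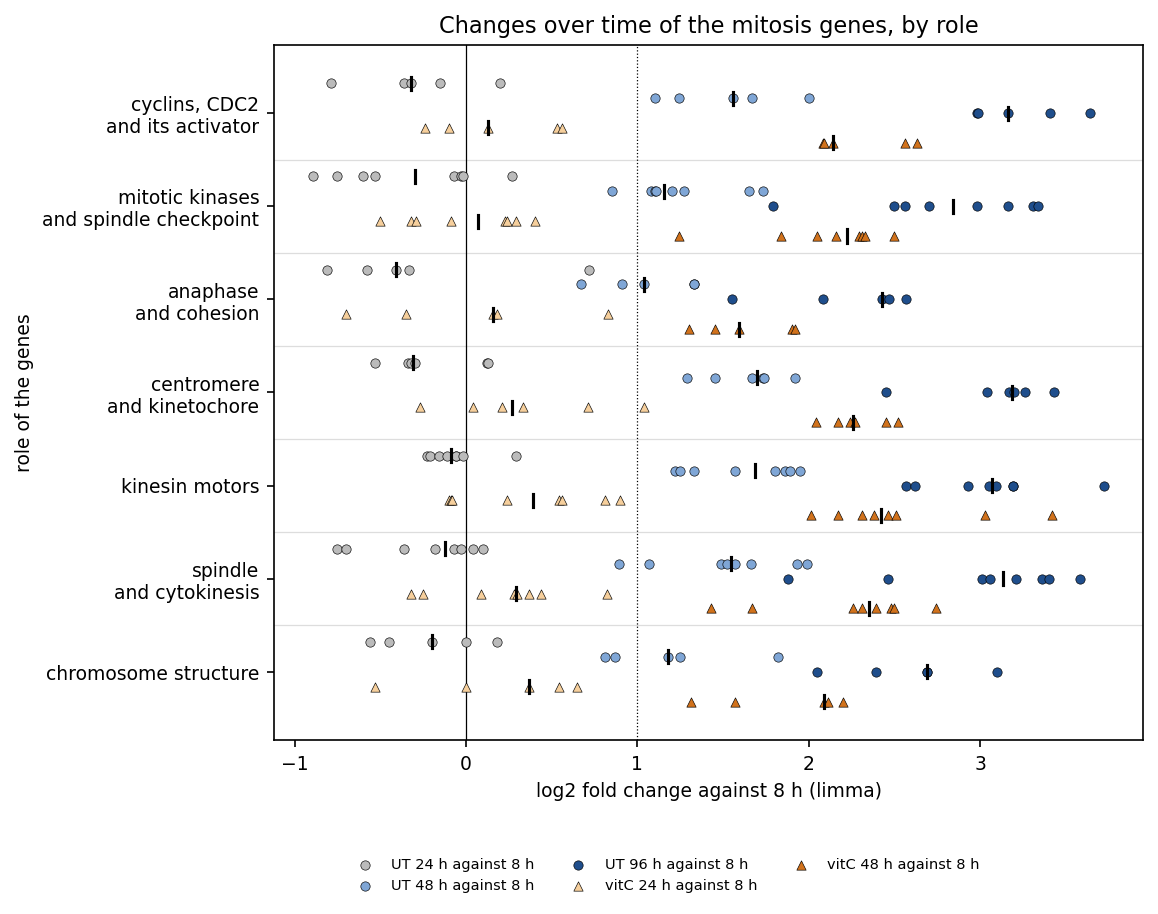
Each point is the log2 fold change of 1 mitosis gene against 8 h of its own arm (horizontal axis), by role (vertical axis), with circles for UT and triangles for vit C-treated cells, black ticks at the medians and a dotted line at 1. At 24 h the points lie on both sides of 0, at 48 h the medians of vit C-treated cells lie further right than those of UT cells in every role, and at 96 h UT cells lie between 1.55 and 3.72.

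In vit C-treated cells 1 of the 45 genes, MLF1IP, was called higher at 24 h than at 8 h, against 2.38% of all genes, and 29 of the 45 were higher, with a median log2 fold change of 0.23, against −0.06 over all genes. MLF1IP read 0.43, 0.38 and −0.04 at 8 h and 1.10 and 1.49 at 24 h, without overlap, a rise of 1.04 (SE 0.25, q = 0.022). Without vit C 24 h replicate 2 it was 0.84 (q = 0.223), and without vit C 8 h replicate 3 it was 0.89 (q = 0.084). The count was 0 in both cases, and 2 without vit C 24 h replicate 1. The median over the 45 was 0.06 without vit C 24 h replicate 2, 0.17 without vit C 8 h replicate 3 and 0.41 without vit C 24 h replicate 1. The methods' t-test called 0 of the 45 and 0% of all genes. KIF2C read 1.77, 1.72 and 1.81 at 8 h and 2.32 and 2.34 at 24 h, a difference of 0.56 (SE 0.15, q = 0.0409) under the fold limit. By 48 h all 45 were called higher than at 8 h, against 6.58% of all genes, with a median of 2.20, or 4.59-fold, against 0.08 over all genes. KIF20A read −2.34, −2.74 and −2.58 at 8 h and 0.53 and 0.42 at 48 h, a rise of 3.03 (SE 0.18, q = 1.02e-07). BIRC5 read 2.84, 2.77 and 2.96 at 8 h and 5.50 and 5.25 at 48 h, a rise of 2.52 (SE 0.18, q = 4.83e-07). KIF14 rose by 3.42 (SE 0.57, q = 0.000782), but its vit C arrays at 48 h were −3.01 and −0.42 and stood far apart, and 1 of 3 vit C arrays at 8 h was well above background. Its rise was 2.12 without vit C 48 h replicate 2 and 1.56 with normexp background correction. With the slide as a fixed term it was also 2.12, because that replicate was the only array on slide 3 and drops out of such a fit. AURKA rose least, by 1.24 (SE 0.18, q = 0.000234).

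At 8 h vit C-treated and UT cells had no mitosis gene called between them (limma), against 0.219% of all genes called higher and 0.193% called lower. At an unadjusted p under 0.05 1 of the 45 differed, against 12.5% of all genes. The methods' t-test called none of the 45 and 0.0322% of all genes, with 3 of the 45 at an unadjusted p under 0.05, against 16.5%. The median log2 fold change was −0.13, against −0.05 over all genes, and 35 of the 45 were lower in vit C-treated cells. The gene at the unadjusted limit was CENPK, a kinetochore protein, with −3.28 and −2.91 in UT cells and −2.74, −2.04 and −2.45 in vit C-treated cells (0.69, SE 0.31, q = 0.382).

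At 24 h 1 of the 45 was called higher in vit C-treated cells, against 0.69% of all genes. This was again MLF1IP, with 0.20, 0.32 and 0.17 in UT cells and 1.10 and 1.49 in vit C-treated cells, a difference of 1.06 (SE 0.25, q = 0.0487). The call was lost with any array of either group left out (0.87 to 1.26), and with the slide as a fixed term the difference was 0.71 (q = 0.755). UT arrays at 24 h were all on slide 1 and vit C arrays all on slide 2. With the slide as a random block the difference was 1.04 (q = 0.0737). In all, 36 of the 45 had the higher mean with vit C, with a median of 0.33, against −0.13 over all genes. The median was 0.16 without vit C 24 h replicate 2, and ran from 0.23 to 0.33 over the other alternatives. Of the 45, 9 had an unadjusted p under 0.05 (limma), all of them higher, against 5040 of all 31033 genes. The methods' t-test called none of the 45 and 0 of all genes. By that test 8 of the 45 had an unadjusted p under 0.05, against 3467 of all genes. CENPK differed by 1.26 (SE 0.31, q = 0.0601), with −2.74, −3.03 and −3.11 against −1.95 and −1.46, and KIF2C by 0.56 (SE 0.15, q = 0.0846). The change from 8 to 24 h, taken in vit C-treated minus UT cells, is free of a constant difference between slides. For it no mitosis gene was called (limma), against 0.0226% of all genes called higher and 0% called lower, and 6 of the 45 had an unadjusted p under 0.05, against 9.32% of all genes. Its median was 0.45, against −0.03 over all genes, and 40 of the 45 were positive. The median was 0.25 without vit C 24 h replicate 2.

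At 48 h vit C-treated cells had the higher mean for each of the 45 genes. None reached the fold limit together with the q limit (limma), against 1.59% of all genes called higher and 1.22% called lower. At an unadjusted p under 0.05 21 of the 45 differed, all of them higher, against 15.8% of all genes. The methods' t-test called none of the 45 and 0% of all genes, with 21 of the 45 at an unadjusted p under 0.05, against 15.7%. The median difference was 0.57, or 1.49-fold, against −0.02 over all genes. For 41 of the 45 both vit C arrays lay above both UT arrays, against 21.8% of all genes, the exceptions being MAD2L1, CENPE, KIF15 and KIF18A. PRC1 read 2.91 and 2.98 in UT cells and 3.82 and 3.72 in vit C-treated cells, a difference of 0.82 (SE 0.16, q = 0.012). KIF20A read −0.43 and −0.52 against 0.53 and 0.42 (0.95, SE 0.20, q = 0.0206). CCNB2 read 3.58 and 3.69 against 4.58 and 4.54 (0.92, SE 0.19, q = 0.0192), and its dimmer probe differed by 0.02. PLK1 read 3.22 and 3.17 against 3.88 and 4.27 (0.88, SE 0.18, q = 0.0189). These 4 genes passed the q limit and stayed under the fold limit. Of all 31033 genes, 545 were higher and 531 lower at the q limit without a fold limit. The cyclin CCNB1, with 2.61 and 2.98 against 3.63 and 3.48, did not pass (0.76, SE 0.22, q = 0.0863), nor did CENPF (0.79, SE 0.20, q = 0.0511).

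The groups at 48 h also differed in slide, with UT arrays on slide 1 and vit C arrays on slides 2 and 3. As vit C 48 h replicate 2 was the only array on slide 3, a fit with the slide as a fixed term rests on vit C 48 h replicate 1 alone. Slides 1 and 2 are tied in it only by the UT arrays at 96 h. In that fit 44 of the 45 were higher, with a median of 0.62. The differences were 1.13 for KIF20A, 0.81 for PRC1, 0.62 for CCNB2 and 0.38 for PLK1. None of the 4 passed the q limit in that fit, with q from 0.325 to 0.852. With the slide as a random block all 4 passed it, with differences of 0.82 to 0.95, and the median was 0.57. With vit C 48 h replicate 1 left out, 2 genes were called, among them PLK1 (1.08, q = 0.0259). The change from 8 to 48 h in vit C-treated minus UT cells was computed after the values at 48 h had been seen. Unlike that from 8 to 24 h, it is not free of a constant difference between slides. Of its vit C arrays, replicate 2 at 48 h was on slide 3 and those at 8 h were on slide 2. The change was positive for all 45, with a median of 0.74, against −0.03 over all genes. No gene of the 45 was called for it (limma), against 0.135% of all genes called higher and 0.0709% called lower, and 18 had an unadjusted p under 0.05, against 6.65% of all genes. The lowest q among them was 0.126, for PLK1 (1.08, SE 0.25).

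By 96 h no mitosis gene was called between vit C-treated and UT cells (limma), against 1.72% of all genes called higher and 5.31% called lower. At an unadjusted p under 0.05 8 of the 45 differed, all of them lower in vit C-treated cells, against 25.3% of all genes. The methods' t-test called none of the 45 and 0% of all genes, with 1 of the 45 at an unadjusted p under 0.05, against 15.2%. The median was −0.16, against −0.15 over all genes, and 28 of the 45 were lower. Without UT 96 h replicate 3 the median was −0.01, with 23 of the 45 lower and 1 called, and without UT 96 h replicate 2 the median was −0.25. With quantile normalization the median was also −0.01, against −0.04 over all genes, with 23 lower. Over the alternatives the median of all genes ran from −0.4 to 0, so the level of the background at 96 h depends on the processing. NCAPG had the lowest q, with 5.48, 5.35 and 5.68 in UT cells and 4.93 and 5.01 in vit C-treated cells (−0.53, SE 0.18, q = 0.0734). CCNB1, with 4.43, 4.32 and 4.84 against 4.31 and 4.32, differed by −0.22 (SE 0.20, q = 0.581). Both vit C arrays were on a slide of their own, scanned on another day, and had the highest 75th percentiles of the signal (788 and 903), so at 96 h vit C and slide cannot be told apart.

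**Figure D4:**
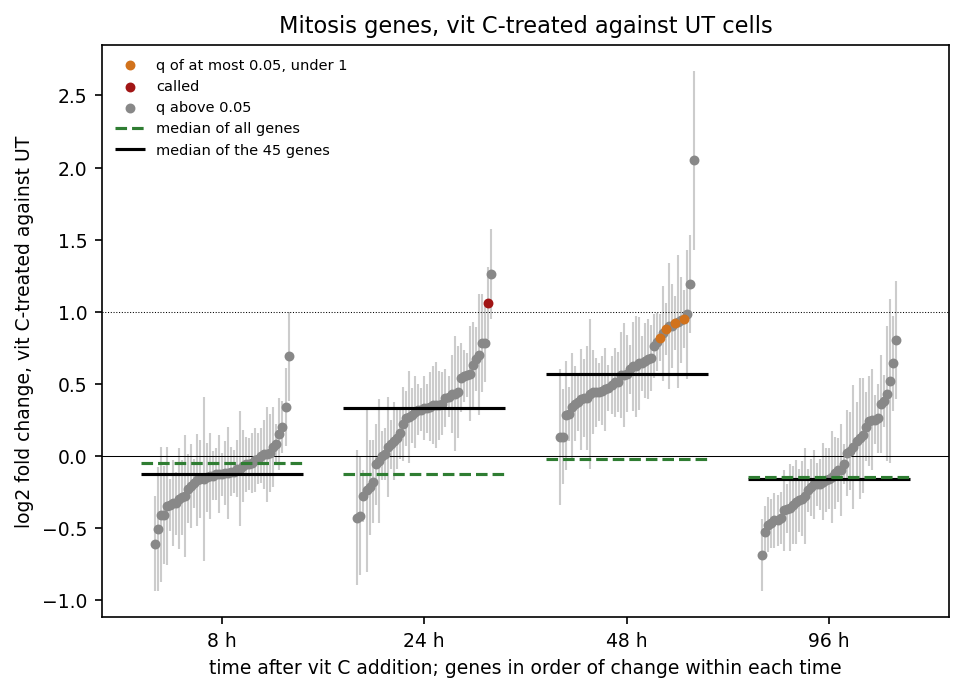
Each point is the log2 fold change of 1 of the 45 genes in vit C-treated against UT cells (vertical axis) at 8, 24, 48 and 96 h (horizontal axis, genes in order of change within each time), with grey bars of 1 SE, red for the called gene, orange for a q of at most 0.05 under the fold limit, a solid line at the median of the 45 and a dashed line at the median of all genes. The 45 lie around the median of all genes at 8 and 96 h, mostly above it at 24 h (0.33 against −0.13), and all above 0 at 48 h (0.57 against −0.02).

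Across the 10 UT arrays the genes moved together. The correlation of each gene with the median of the other 44 lay between 0.826 (ESPL1) and 0.997 (CCNA2), with a median of 0.977, against a median of −0.087 over all genes. A value of 0.826 or more was found for 6.29% of all genes. CDC20 (0.925), AURKB (0.949) and PTTG1 (0.95) followed ESPL1 at the low end. These values describe 10 arrays that share 4 time points and 2 slides.

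Other genes of mitosis and its control, from a list kept apart from the 45, were measured for 111 of 112 names. In UT cells 42 of the 111 were called higher and 1 lower at 48 h against 8 h, against 4.44% and 2.6% of all genes. At 96 h 70 were called higher and 1 lower, against 6.97% and 5.38%. In vit C-treated cells 65 were called higher and 1 lower at 48 h, against 6.58% and 4.03%. At 96 h in UT cells 20 of 21 other spindle, motor and cytokinesis genes and 21 of 26 other kinetochore genes were called higher. For other chromosome structure and passenger genes the count was 8 of 16, and for other cell cycle control and anaphase-promoting complex genes 12 of 26. Differences between these lists were not tested. The kinetochore gene NDC80 rose by 3.85 (SE 0.19, q = 2.24e-08), and CEP55, a protein of the final cut between daughter cells, also by 3.85 (SE 0.22, q = 4.97e-08). FAM64A, a regulator of the metaphase to anaphase transition, was the 1 gene of the 111 called lower between 8 and 24 h in UT cells, against 1.07% of all genes, and fell by 1.43 on the log2 scale (SE 0.17, q = 0.000413). From 24 to 96 h it rose by 4.69 (SE 0.15, q = 2.7e-10).

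Among 22 transcription regulators of mitotic genes, 9 were called higher and 1 lower in UT cells at 96 h against 8 h. Of all genes 6.97% were called higher and 5.38% lower. Of the regulators named for this comparison, all but E2F8 were chosen after their values had been seen. FOXM1, a forkhead factor of G2 and M genes, rose by 2.84 (SE 0.24, q = 1.47e-06), and LIN9, a subunit of the complex that binds the CHR, by 2.54 (SE 0.25, q = 6.24e-06). The E2F factors E2F8 (3.63, SE 0.33, q = 2.69e-06), E2F2 (3.35, SE 0.18, q = 3.45e-08) and E2F1 (2.69, SE 0.20, q = 3.58e-07) were called higher. E2F5 was the 1 regulator called lower (−1.05, SE 0.30, q = 0.0247). At 24 h in vit C-treated cells E2F2 (1.79, SE 0.18, q = 4.27e-05), E2F7 (1.72, SE 0.26, q = 0.000967) and E2F1 (1.49, SE 0.20, q = 0.000338) were called higher than at 8 h. These were 3 of the 22 regulators, against 2.38% of all genes. No regulator was called between 8 and 24 h in UT cells, with changes from −0.29 to 0.61. Nor was any called between vit C-treated and UT cells at 24 h, with differences from −1.07 to 0.83, or for the change from 8 to 24 h in vit C-treated minus UT cells. Between vit C-treated and UT cells few of the 111 were called, all higher with vit C. At 24 h it was 1, against 0.69% of all genes, the kinetochore gene C18orf24 (1.25, SE 0.27, q = 0.0323). At 48 h it was 2, against 1.59%, the spindle protein CKAP2L (1.72, SE 0.32, q = 0.0108) and the cytokinesis kinase CIT (1.25, SE 0.27, q = 0.0201). At 96 h it was 1, against 1.72%, the cohesin regulator APRIN, now PDS5B (1.18, SE 0.20, q = 0.00348). These counts of genes called higher lie near the shares over all genes. None of the 111 was called lower, against 1.22% of all genes at 48 h and 5.31% at 96 h.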

How the data were processed

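RNA from 19 cultures was labelled with Cy3 and hybridized to 1-colour Agilent arrays, 1 array a sample. For the intensity values, the authors deposited 1 scanner file per array with Agilent Feature Extraction's processed signal on a linear scale (version 10.5.1.1 per the file headers). For the log2 values, the authors deposited a series matrix of GeneSpring values shifted to each array's 75th percentile, which was checked to equal the log2 signal minus 1 constant per array for 50108 probes with 1 spot. The scanner files were used, and the matrix served as an alternative.

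The log2 signal of 51538 spots that were not controls was averaged over the spots of 50238 probes, and each array's 75th percentile was subtracted. No spot was saturated. The brightest probe over all arrays stood for a gene (31033 names, those of the array's design). Older symbols were matched through RefSeq, and CDC2, a synonym of several genes there, through its probe's transcript accession. With limma 3.58.1, 8 group means were estimated from all 19 arrays together (lmFit and eBayes, 2-sided, in R 4.3.3), with Benjamini-Hochberg q values over all genes. Calls needed a log2 fold change of at least 1 in size and a q of at most 0.05, as in the methods. All p-values measure the spread between arrays, which come from separate flasks of 1 cell line. Precision is set by how few arrays there were, and with 2 or 3 a group no exact test on single values could pass. The scripts were tested on simulated data. Figures used Python 3.11.15 and matplotlib 3.10.9.

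Any mitosis gene could be named, and of the other lists at most the 5 largest called changes per comparison. Regulators named outside this rule are marked in the text as chosen after their values had been seen. The members and lists were chosen with earlier results of these data known. Alternatives were the methods' t-test, normexp with an offset of 50, quantile normalization, a floor of 20, the percentile over probes detected on all arrays, gene means of probes, the methods' rule on opposing probes, dim genes left out, no minimum fold, a replicate block, the slide (as a fixed term and as a random block), the series matrix, the compared groups alone and each array left out in turn.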

Additional observations from a re-analysis of the deposited data

How the results depend on the processing

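The counts of mitosis genes called for changes up to 48 and 96 h stayed within 1.5 times of the reported ones under all alternatives but the methods' t-test. That test, which estimates the spread from the 2 or 3 arrays of each group, called 0 in UT cells at 48 h against 8 h and 6 at 96 h against 8 h, where it called 7 and 211 of all 31033 genes. It called 0 of all genes for vit C-treated against UT cells at 24, 48 and 96 h and for either arm at 24 h against 8 h. Of the small counts, that for vit C-treated against UT cells at 24 h (1) was 2 with quantile normalization, with the percentile over detected probes and with dim genes left out. It was 0 with the methods' t-test, the slide as a fixed term, the slide as a random block, the replicate block and the compared groups alone. At 48 h it (0) was 2 with the percentile over detected probes and 4 with no minimum fold. For vit C-treated cells at 24 h against 8 h (1) it was 0 with the methods' t-test, normexp, the percentile over detected probes and the compared groups alone, and 3 with no minimum fold. For UT cells at 24 h against 8 h (0) it was 2 with no minimum fold. For the change from 8 to 48 h in vit C-treated minus UT cells (0) it was 2 with quantile normalization and 2 with the floor. All alternatives for that change were chosen after the data had been seen. So was a fit that left out the UT 96 h arrays of slide 2 and kept 1 UT array at 96 h.

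With each array left out in turn, the counts ranged from 25 to 29 in UT cells at 48 h against 8 h, 44 to 45 at 96 h against 8 h and 41 to 45 in vit C-treated cells at 48 h against 8 h. At 96 h against 24 h in UT cells the count was 44 throughout. For vit C-treated cells at 24 h against 8 h it ranged from 0 to 2. For vit C-treated against UT cells it was 0 at 24 h, 0 to 2 at 48 h and 0 to 1 at 96 h, where the 1 came without UT 96 h replicate 3. It ranged from 0 to 1 for the 8 to 48 h change between arms, where the 1 came without vit C 48 h replicate 1. A lone array was assumed to vary like the other groups.

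Replicate numbers are shared between arms, but arrays of 1 number did not deviate together (r of 0.009, −0.002, −0.024 and −0.032 at 8, 24, 48 and 96 h, over all genes). With the replicate block the count was 29 in UT cells at 48 h against 8 h, and 45 at 96 h. Both rest on the numbers in the sample titles. The descriptions number the 48 h arrays 2 and 3 in both arms, where the titles have 1 and 2, so the pairs at 48 h are the same but their tie to other times is in doubt. The slide as a fixed term gives no value for vit C-treated against UT cells at 96 h. Normexp background correction moved the median of all genes from 0.05 to 0.26 for UT cells at 24 h against 8 h and from 0.04 to 0.30 at 48 h. Quantile normalization moved it from −0.13 to −0.01 and from −0.15 to −0.04 for vit C-treated against UT cells at 24 and 96 h, and from −0.15 to −0.01 for UT cells at 96 h against 24 h. Over the alternatives the median of the mitosis genes ranged from −0.22 to −0.08 and from 1.13 to 1.39 for UT cells at 24 and 48 h against 8 h, and for vit C-treated against UT cells from 0.55 to 0.63 at 48 h and from −0.16 to −0.01 at 96 h. With each array left out in turn these medians ran from 0.47 to 0.69 and from −0.25 to −0.01.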
